A study of Danio rerio with 13 samples.

Results

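The 8 genes described here encode transcription factors of blood and myeloid cells: spi1b, spi1a, cebpa, cebpb, ikzf1, irf8, runx1 and cbfb. They were chosen by name, and all promoter windows that carry one of these symbols were read in both deposited tables, which gave 12 of 42037 windows and 8 of 24416 genes (mitochondrial genes left out). Zebrafish heart ventricle was the tissue, and a pair of histone marks was mapped by ChIP-seq, the sequencing of DNA that an antibody pulls down with a modified histone. H3K4me3, trimethylation of histone H3 at lysine 4, is found at active promoters. H3K27me3 is the same modification of lysine 27, made by the Polycomb complex PRC2 and found at silenced promoters.

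Every library came from fish of the strain TuAB aged 1 to 1.5 years, from cells of the apical part of the ventricle that were held back on a nylon mesh of 10 micrometres to enrich cardiomyocytes. The uninjured group had no resection, and the resected group was taken 5 days after removal of the ventricular apex. Each mark had 3 libraries per group, described as biological replicates, and 1 mixed input sample was not used here. The labels do not say how many fish went into a library.

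PU.1, the product of spi1b and spi1a, is an ETS-family factor that directs blood progenitors to macrophages and neutrophils. C/EBP alpha (cebpa) and C/EBP beta (cebpb) are bZIP factors of granulocyte and macrophage development and of inflammatory responses. IRF8 directs progenitors to the macrophage fate, Ikaros (ikzf1) is a zinc finger factor of lymphoid and other blood lineages, and RUNX1 (runx1) is required for blood stem cells to form. The product of cbfb does not bind DNA itself and is the partner subunit that stabilises RUNX proteins on DNA.

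The tables give a mean over both conditions and a comparison for each window, so values per library, and the depth of each library, are not given here. A level below is the authors' mean normalised count in a window of 4 kb around an annotated start site. Levels are ranked between windows of equal width, but were not set against the input sample here. A change is the authors' log2 fold change of resected over uninjured hearts, and it passed at their adjusted p under 0.05 (DESeq2 column names, Wald test). A gene with several windows is represented by the window with its highest count of the mark. Each 95% interval is the normal interval from the authors' standard error. H3K4me3 fold changes bear the signs of shrinkage towards 0 and H3K27me3 fold changes do not, so the sizes of the changes of the marks are not on 1 scale.

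Of 23 cardiomyocyte marker genes, 15 had more H3K4me3 than the median gene, among them hand2, gata4, mb and myl7. The others, vmhc, myh6, actc1a, actc1b, nppa, nppb, ryr2b and csrp3, lay below it. The median mean count for H3K4me3 was 145 over the 23, and 73.4 over 51 myeloid effector genes, against 94.0 over all genes. It was 218 over 20 endothelial and endocardial markers and 127 over 18 epicardial and fibroblast markers. Whether the mesh enriched cardiomyocytes was not tested.

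The 8 promoters had different levels of the marks in counts pooled over both conditions. H3K4me3 in the authors' deposited table was highest at cebpb, with a mean count of 656 (percentile 98.9 of genes), followed by cebpa with 394 (percentile 90.8). The cebpa window shares 2215 bases with a window of the gene cebpg, and that of cebpb shares 337 with tmem189. The level of either mark in these windows therefore cannot be assigned to cebpa or cebpb alone. A middle group held cbfb with 193, runx1 with 186, ikzf1 with 134 and irf8 with 133 in the authors' deposited table. The PU.1 genes were lowest in the authors' deposited table, at 92.4 for spi1b (percentile 49.6) and 40.2 for spi1a (percentile 22.1). The table gives no error for a level, so whether cbfb differs from runx1, or ikzf1 from irf8, cannot be said.

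H3K27me3 ordered the same genes differently. It was highest at ikzf1, with a mean count of 113 in the authors' deposited table (percentile 95.6 of genes), then cebpa with 93.3 (percentile 90.8) and cbfb with 83.2 (percentile 84.2). The other 5 lay below the median gene of 60.5 in the authors' deposited table, at 56.7 for spi1a, 46.0 for spi1b, 44.7 for irf8, 42.4 for cebpb and 15.1 for runx1 (percentile 1.64). Thus ikzf1, cebpa and cbfb lay above the median gene for both marks, and spi1a and spi1b below it for both. The counts pool both conditions and all cells of a library, so they do not show whether both marks sat in the same cell.

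**Figure D1:**
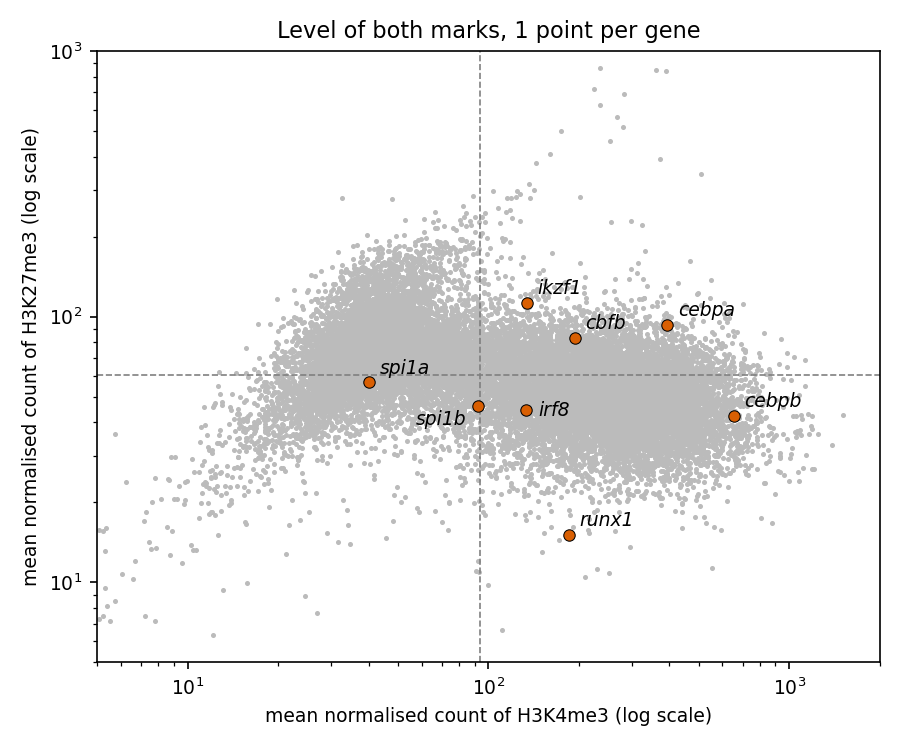
Mean normalised count of H3K4me3 (x axis) and H3K27me3 (y axis), both on log scales and each at the gene's window of highest count, for all genes (grey) and the 8 transcription factor genes (orange). Dashed lines mark the medians of all genes, 94.0 and 60.5, and 370 of 24416 genes lie outside the axes. ikzf1, cebpa and cbfb stand in the upper right. cebpb has much H3K4me3 with little H3K27me3, and runx1 has H3K4me3 above the median with the least H3K27me3 of the 8.

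H3K4me3 rose after resection at 4 of the 8 genes, spi1b, ikzf1, irf8 and cebpa, and fell at none. Another 3, cbfb, runx1 and cebpb, did not pass, and spi1a was given no adjusted p. Over all genes with an adjusted p, 1.52% were called higher. At an unadjusted p under 0.05, 6 of the 8 lay higher, the 4 with cbfb and spi1a, against 4.26% of all genes. All 8 log2 fold changes were above 0, against 52.3% of all genes, and the median Wald statistic (log2 fold change over its standard error) was 3.14 over the 8 and 0.05 over all genes. The 8 genes were chosen with results of these data known, so these counts are a description.

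The largest change was at spi1b, the gene of the main PU.1 of early zebrafish myeloid cells. In the authors' deposited table its log2 fold change was 1.41 (SE 0.27, 95% interval 0.88 to 1.95, adjusted p = 0.000109), a 2.67-fold gain. That made spi1b the 7th largest of the 234 gains among genes. With the shrinkage undone, at a strength inferred from the standard errors themselves, the gain would be 3.96-fold (log2 1.98, 95% interval 1.23 to 2.73). Its 3 windows, on the minus strand of chromosome 7, have centres within 305 bases of each other, and the authors' deposited table gives them log2 fold changes from 1.41 to 1.44. They share nearly all of their bases and are not independent measurements. The window used spans 32385899 to 32389898, in a build that the sources used here do not state, as for all positions below.

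Its duplicate spi1a showed a smaller value at a promoter with little signal. On chromosome 25 (35046604 to 35050603, plus strand), the authors' deposited table gives spi1a a log2 fold change of 0.70 (SE 0.30, 95% interval 0.12 to 1.28, unadjusted p = 0.0188). Its count of 40.2 lies below 51.8, the lowest mean with an adjusted p in the authors' deposited table. The intervals of spi1b and spi1a overlap, and the difference between the duplicates was not tested.

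Ikaros and IRF8 followed. In the authors' deposited table ikzf1 had a log2 fold change of 1.16 (SE 0.25, 95% interval 0.66 to 1.65, adjusted p = 0.000753), a 2.23-fold gain. Its windows lie on chromosome 13 (15861428 to 15865427 for the one used, minus strand), 53 bases apart, and the other gave 1.15 in the authors' deposited table. The irf8 window, on chromosome 18 (30587692 to 30591691, plus strand), rose by 0.99 in the authors' deposited table (SE 0.27, 95% interval 0.46 to 1.51, adjusted p = 0.0144), a 1.98-fold gain. Its call was the only one of the 4 that an adjusted p under 0.01 would lose.

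The C/EBP genes differed in what could be called. At cebpa, on chromosome 7 (37814608 to 37818607, minus strand), the authors' deposited table gives 0.91 (SE 0.21, 95% interval 0.49 to 1.33, adjusted p = 0.00212), a 1.88-fold gain on a high level in a window partly shared with cebpg. At cebpb, on chromosome 8 (28413775 to 28417774, minus strand), it gives 0.02 (adjusted p = 1.00, SE 0.25 in the authors' deposited table). The 95% interval of cebpb, -0.47 to 0.50, leaves room for a gain of up to 1.42-fold. This promoter had the highest H3K4me3 level of the 8 in the pooled counts. The intervals of cebpa and cebpb meet only at their ends, and their difference was not tested.

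Neither subunit of the core binding factor passed the test for H3K4me3. For cbfb, on chromosome 18 (23003048 to 23007047, plus strand), the authors' deposited table gives 0.63 (SE 0.24, unadjusted p = 0.00871, adjusted p = 0.163), a 1.55-fold difference with a 95% interval of 1.12 to 2.14. For runx1, on chromosome 1 (1251962 to 1255961, minus strand), it gives 0.42 (SE 0.26, 95% interval -0.09 to 0.93, adjusted p = 0.628 in the authors' deposited table). runx1 is represented by a single window in the tables.

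**Figure D2:**
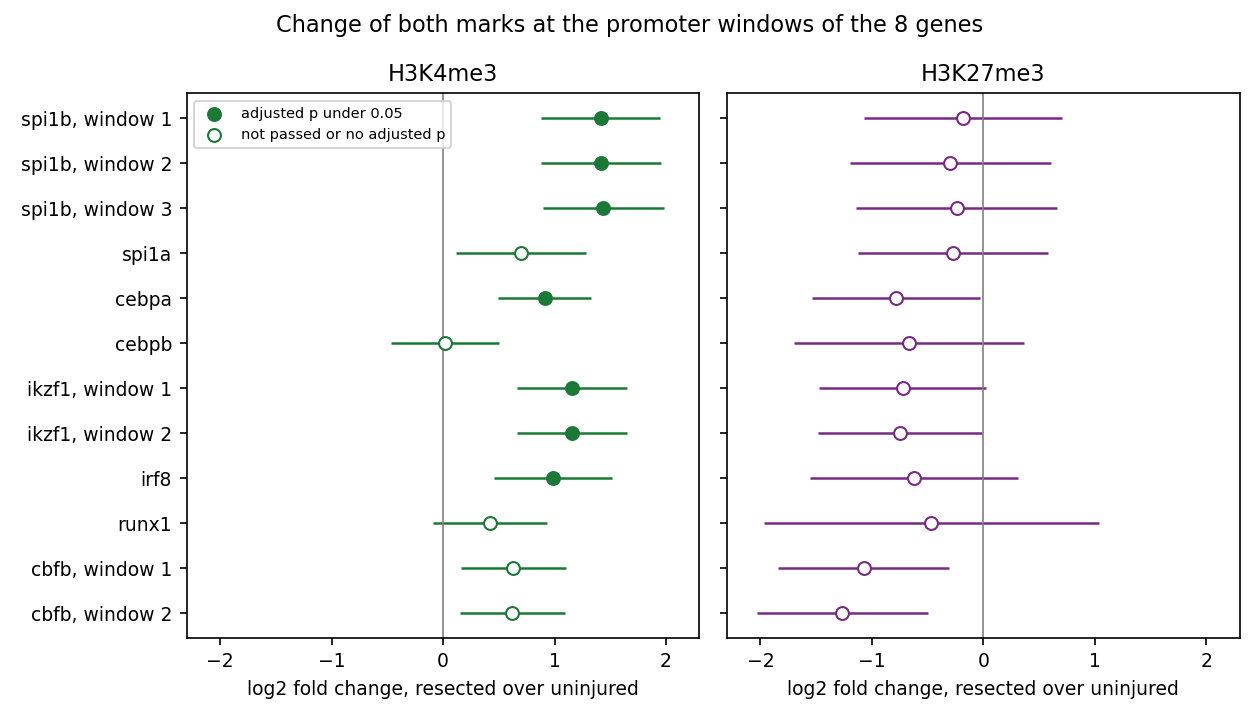
Log2 fold change of resected over uninjured hearts (x axis) for H3K4me3 (left) and H3K27me3 (right) at all 12 windows of the 8 genes. Bars are 95% normal intervals from the authors' standard errors. Filled points passed an adjusted p of 0.05, which holds for the 7 H3K4me3 windows of spi1b, cebpa, ikzf1 and irf8 and for no H3K27me3 window.

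H3K27me3 passed the test at none of the 8 genes. The same holds for all genes, since 0% of 24075 were called, and the smallest adjusted p over all windows was 1.00 in the authors' deposited table. All 8 log2 fold changes were nevertheless below 0, where 47.7% of all genes lay below 0. The median over the 8 was -0.65, and over all genes it was 0.02. At an unadjusted p under 0.05, 3 of the 8 lay lower (cbfb, cebpa and ikzf1), against 1.74% of all genes.

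The lowest value was at cbfb. In the authors' deposited table its H3K27me3 log2 fold change was -1.26 (SE 0.39, 95% interval -2.03 to -0.50, unadjusted p = 0.00117) at the window of highest count, 2.40-fold less. Only 6 of 24075 genes had a lower Wald statistic. The other cbfb window, 314 bases away, had -1.07 in the authors' deposited table (SE 0.39, unadjusted p = 0.00589). For cebpa the authors' deposited table gives -0.78 (SE 0.39, unadjusted p = 0.0426), and for ikzf1 -0.75 (SE 0.38, unadjusted p = 0.0463). The second ikzf1 window, with -0.72 in the authors' deposited table, had an unadjusted p of 0.0577, so its side of 0.05 turns on the window taken. These 3 genes were also the ones with the most H3K27me3.

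The other 5 had 95% intervals that include 0. The authors' deposited table gives -0.67 for cebpb (SE 0.53), -0.62 for irf8 (SE 0.48), -0.47 for runx1 (SE 0.77), -0.27 for spi1a (SE 0.44) and -0.18 for spi1b (SE 0.45). The wide error of runx1 goes with its count of 15.1. At spi1b the interval, -1.07 to 0.70, allows a change of either sign beside the clear gain of H3K4me3.

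Set against each other, the changes of the marks differed at 1 gene by the test. The log2 fold change of H3K4me3 minus that of H3K27me3, at the window of highest H3K4me3, was 1.88 for ikzf1 (SE 0.46, 95% interval 0.98 to 2.77). Its adjusted p was 0.0333 in a two-sided z test with Benjamini-Hochberg adjustment over all genes, where 0.0415% of 24075 genes passed in this direction. The test does not show that H3K27me3 fell. At that ikzf1 window H3K27me3 had -0.72 (unadjusted p = 0.0577 in the authors' Wald test). The test also subtracts changes that are not on 1 scale. cbfb had 1.70 (adjusted p = 0.0840 in that z test) and cebpa 1.69 (adjusted p = 0.0666). Both pass with the shrinkage of H3K4me3 undone at the inferred strength. That setting enlarges each H3K4me3 change, and the share of all genes that passed in it was not computed. irf8 had 1.61, spi1b 1.60, spi1a 0.97, runx1 0.88 and cebpb 0.69, with adjusted p from 0.288 to 0.980. H3K4me3 above 0 with H3K27me3 below 0, as at all 8 genes, was found at 26.4% of all genes, and among genes called higher for H3K4me3 67% had H3K27me3 below 0.

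**Figure D3:**
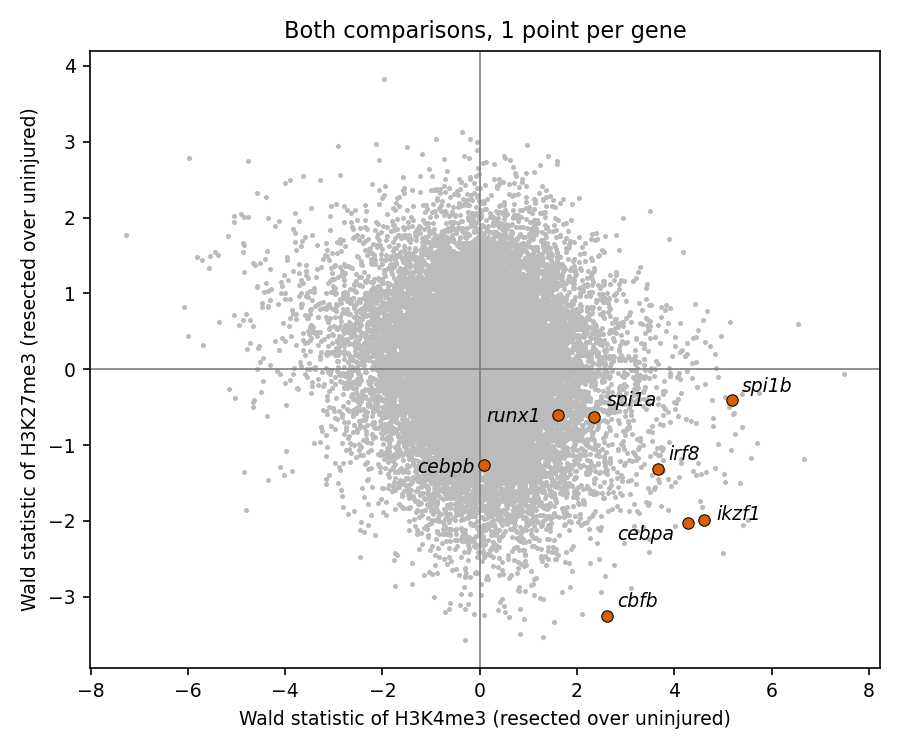
Wald statistic of H3K4me3 (x axis) and of H3K27me3 (y axis), resected over uninjured, for 24075 genes (grey) and the 8 transcription factor genes (orange), each at the window of highest count of the mark. All 8 lie in the lower right part, with spi1b farthest right (5.18) and cbfb lowest (-3.25).

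Of the promoters beside these genes, 1 passed the H3K4me3 test. Within 100 kb of the 8 genes lie 42 windows of 30 other genes, 29 of the windows with an adjusted p. The 1 that passed was the kcna4 window 60.5 kb from spi1b, with a log2 fold change of 0.95 (adjusted p = 0.0257) in the authors' deposited table. Over all genes with an adjusted p, 1.52% were called higher and 1.4% lower. With so few windows, the count of 1 does not set the neighbours apart from other promoters. kcna4 encodes a voltage-gated potassium channel. The promoters nearest to spi1b, those of si:ch73-314g15.3 and arl14ep on one side and slc39a13 on the other, had 0.14, 0.15 and -0.06 in the authors' deposited table and did not pass. No window of another gene lies within 100 kb of cbfb.

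Only cebpa and cebpb share their window with another gene. The cebpa window overlaps by 2215 bases the nearer window of cebpg, a C/EBP gene read in the opposite direction whose centre is 1.79 kb away. For H3K4me3 the authors' deposited table gives cebpg 0.13 (SE 0.22, adjusted p = 0.958) on a level of 585, beside 0.91 for cebpa. The farther cebpg window, which shares 1350 bases with that of cebpa, had 0.02 in the authors' deposited table. For H3K27me3 the cebpg windows had -0.86 and -1.06 in the authors' deposited table (unadjusted p = 0.0457 and 0.0335), beside -0.78 for cebpa. Signal in the shared stretch cannot be assigned to either gene. The cebpb window shares 337 bases with that of tmem189, which had 0.27 for H3K4me3 in the authors' deposited table and did not pass.

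**Figure D4:**
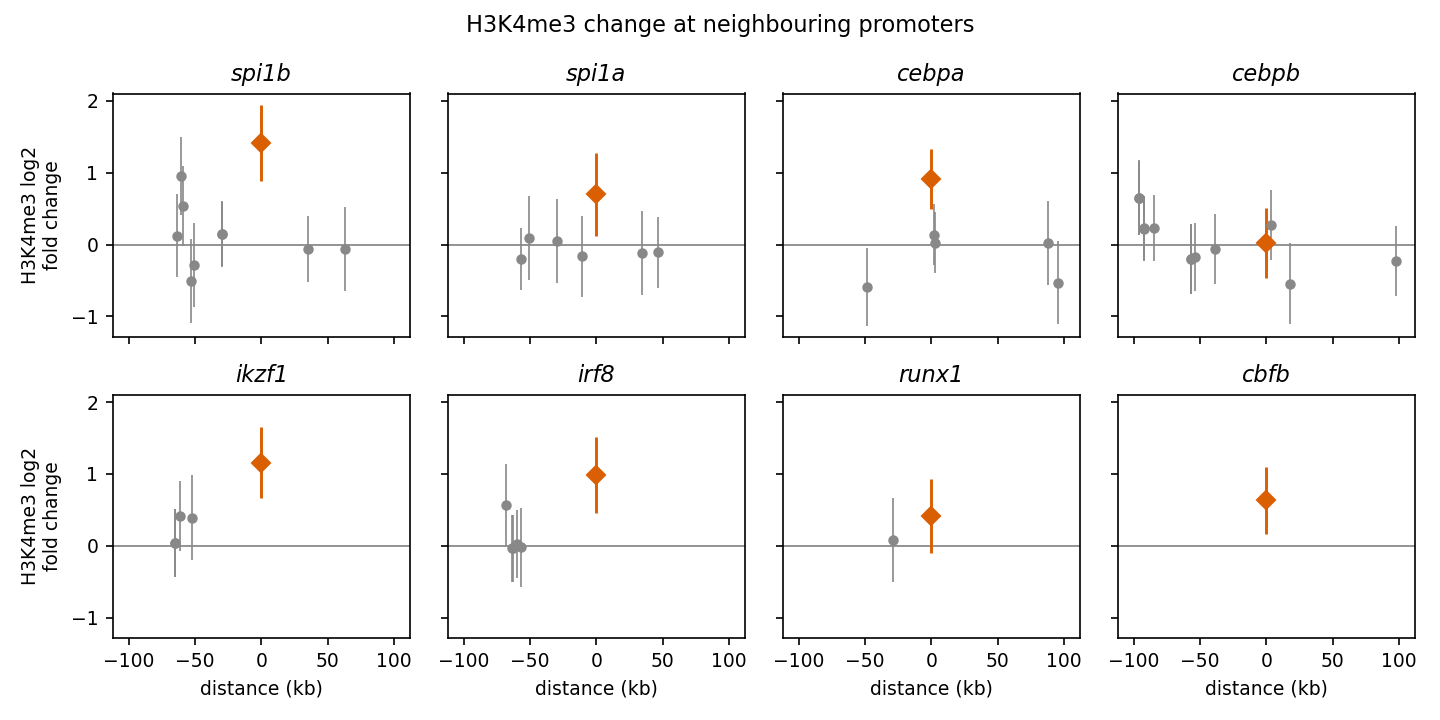
H3K4me3 log2 fold change of resected over uninjured (y axis) at each of the 8 genes (orange diamonds, at 0) and at other genes' windows within 100 kb (grey points), by distance between window centres in kb along the chromosome (x axis). Bars are 95% intervals from the authors' standard errors. The diamonds of spi1b, ikzf1, irf8, cebpa, spi1a and runx1 stand above all of their neighbours. That of cebpb does not, and cbfb has no neighbour.

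Of 24 other haematopoietic factors measured, among them tal1, lmo2, gata1a and myb, H3K4me3 rose at 0 and fell at 0 (18 had an adjusted p), and the median Wald statistic was -0.28 against 0.05 over all genes. Over all genes with an adjusted p, 1.52% were called higher and 1.4% lower. With so few genes, the counts of 0 do not set this list apart from other genes. At an unadjusted p under 0.05, 3 of the list lay above 0 (myb, klf1 and tal1) and 2 below (gata2a and bcl11aa). Over all genes 4.26% lay higher at that threshold, and the share that lay lower was not computed. myb, a progenitor factor, had 0.76 (adjusted p = 0.0968) and klf1, an erythroid factor, 0.72 (adjusted p = 0.144) in the authors' deposited table.

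A list of relatives of the 8 genes showed no gain that passed. It holds genes of the C/EBP, IRF, Ikaros and RUNX families, the ETS gene spi2, and runx1t1, cbfa2t2 and cbfa2t3, which encode corepressors and not RUNX proteins. Of 25 measured, 0 rose (1 at an unadjusted p under 0.05, runx2a) and 1 fell (6 unadjusted), with 20 given an adjusted p. The shares called over all genes with an adjusted p were 1.52% higher and 1.4% lower. At an unadjusted p under 0.05, 4.26% of all genes lay higher, and the share that lay lower was not computed. The 6 were runx1t1, cbfa2t2, cbfa2t3, irf4a, irf4b and cebp1. In the authors' Wald test cebp1, a C/EBP gene with a count of 13.7, had -0.57 (unadjusted p = 0.0402, no adjusted p). The gene that fell was runx1t1, whose product was first known as the fusion partner of human RUNX1 in leukaemia (-0.92, adjusted p = 0.00280, SE 0.22 in the authors' deposited table). cebpd, with a level of 730, had -0.40 (adjusted p = 0.512 in the authors' deposited table), and runx3 had 0.27 (adjusted p = 0.888 in the authors' deposited table). Among the IRF genes irf5, a macrophage factor, had 0.36 and irf7, an interferon-response factor, 0.07 in the authors' deposited table, and neither passed. Lower values stood at irf4a, with -0.62 (unadjusted p = 0.0241, adjusted p = 0.296), and irf4b, with -0.79 (unadjusted p = 0.00793, no adjusted p), both genes of a lymphocyte and dendritic cell factor, in the authors' deposited table.

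Genes of myeloid effector proteins rose in part. Of 51 measured, 11 rose and none fell (36 had an adjusted p), with a median Wald statistic of 1.62 against 0.05 over all genes. The share called higher was 1.52% over all genes with an adjusted p. The rise at lyn and hck, kinases of immune receptor signalling, was 1.34 and 1.35 in the authors' deposited table. It was 1.36 at il10ra, an interleukin receptor gene, 1.38 at laptm5, a lysosomal protein gene, and 1.13 and 1.15 at c1qb and c1qc, complement genes, in the authors' deposited table. The neutrophil genes mpx and lyz had 0.08 and 0.13 in the authors' deposited table and no adjusted p. Of the perforin-family genes of macrophages, mpeg1.1 had 0.83 (adjusted p = 0.0631) and mpeg1.2 0.11 (adjusted p = 0.984) in the authors' deposited table. The macrophage receptor genes marco and csf1ra had 0.11 and -0.10 in the authors' deposited table and no adjusted p. For H3K27me3 34 of the 51 lay below 0 and none passed (3 at an unadjusted p under 0.05), with a median Wald statistic of -0.50, against 47.7% of all genes below 0.

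Markers of other cell types moved in the same H3K4me3 comparison. Cardiomyocyte markers fell at 11 of 23 genes and rose at none (median Wald statistic -2.99, with 20 given an adjusted p). Endothelial and endocardial markers fell at 4 of 20 (-1.75, with 17 given an adjusted p). Epicardial and fibroblast markers rose at 6 of 18 (0.96, with 15 given one) and erythroid and thrombocyte markers at 7 of 21 (1.18, with 18). Lymphoid markers rose at 0 of 16 (0.25, with 5 given an adjusted p and 2 higher at an unadjusted p under 0.05). The cardiomyocyte genes with the smallest adjusted p were cmlc1, mb, myl7, vmhcl, nppa and nkx2.5, with log2 fold changes from -1.53 (cmlc1) to -1.36 (mb) in the authors' deposited table. The endothelial and endocardial genes that fell were prox1a (-1.57), a lymphatic endothelial factor that cardiomyocytes also express, nfatc1 (-0.78), kdrl (-0.74) and kdr (-0.80) in the authors' deposited table. Those of epicardium and fibroblasts that rose were fn1a (1.84), bnc1 (1.21), tbx18 (1.04), wt1a (1.11), krt4 (0.96) and wt1b (1.00) in the authors' deposited table. Among erythroid genes those with the smallest adjusted p were cahz (0.99), hbba1, hbba2, hbaa1 and hbaa2 of adult haemoglobin (0.88 to 0.96), and epb41b (0.90), given as log2 fold changes from the authors' deposited table. The thrombocyte genes itga2b (0.20), mpl (-0.03), gp1bb (-0.12) and gp9 (0.32) did not pass in the authors' deposited table. There f5 (0.15) and tspan9a (0.30) had no adjusted p. In the background, 1.52% of genes with an adjusted p were called higher and 1.4% lower. For H3K27me3, 22 of 23 cardiomyocyte markers lay above 0, where all 8 factors lay below. The part of these shifts in the changes at the 8 genes was not tested. In such mixed cells, more cells of a type and more of the mark per cell cannot be told apart.

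**Figure D5:**
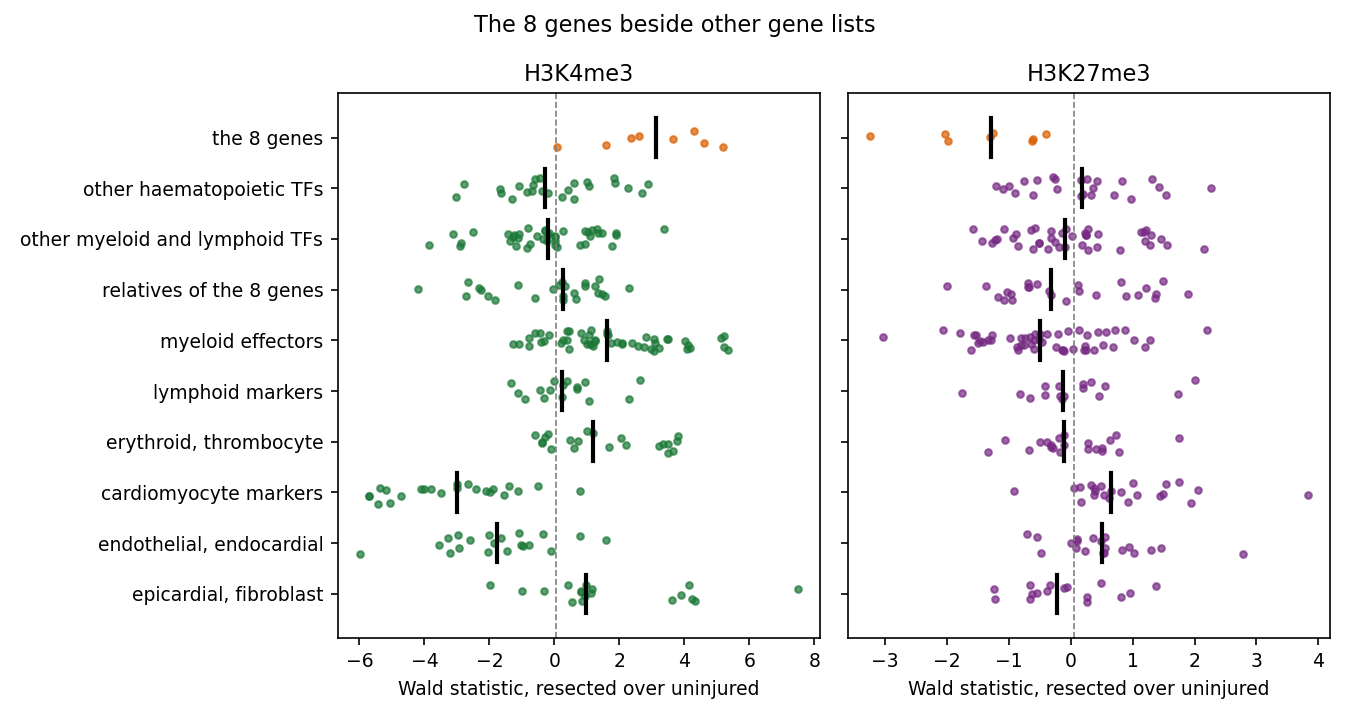
Wald statistics of resected over uninjured (x axis) for H3K4me3 (left) and H3K27me3 (right), 1 point per gene, for the 8 genes (orange) and 9 other gene lists. Black bars are medians and the dashed line is the median of all genes. The 8 genes have a median of 3.14 for H3K4me3 and -1.29 for H3K27me3, and cardiomyocyte markers -2.99 and 0.65.

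By level and change of both marks together, the genes most like each called factor were as follows, over 4 standardised measures (level and Wald statistic of both marks) in these 2 comparisons. Nearest to spi1b were anln, the cytokinesis scaffold anillin (distance 0.19), laptm5 (0.24) and mybl2b, a cell cycle transcription factor (0.25), with H3K4me3 log2 fold changes of 1.38, 1.38 and 1.36 in the authors' deposited table. Nearest to irf8 were dck, a nucleoside kinase gene (0.23), agpat4, a lipid acyltransferase gene (0.46), and cenpe, a kinetochore motor gene (0.47). cebpa and ikzf1 shared gnao1a, a G protein subunit gene (0.61 and 1.02), and lcp1, the leukocyte plastin gene (1.31 and 1.16). adrb3a, an adrenergic receptor gene, came second for cebpa (1.29), and coro1a, a leukocyte coronin gene, was the third for ikzf1 (1.16). Distances were larger for cebpa and ikzf1 than for spi1b and irf8.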

How the data were processed

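Both tables are the authors' own comparisons of 3 resected with 3 uninjured libraries per mark. The signal is the authors' mean normalised count per window, per the file headers. The log2 fold change and its standard error are values deposited by the authors, as are the Wald statistic (a score), the p-value and the adjusted p-value, under DESeq2 column names. Per the submitters' processing notes, the authors' tools were DESeq2, MACS2, bedtools 2.26.0, SAMtools, Picard 2.8.1, Bowtie2 2.3.2 and BWA and the builds GRCz10, danRer10 and danRer7, with no role given. An adjusted p-value for H3K4me3 was deposited only for the 24913 windows with a mean of at least 51.8.

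Positions count from 1. Standard errors of H3K4me3 reach at most 0.301. This maximum was assumed to be the ceiling that shrinkage by a normal prior sets. The SD of the prior, 0.603, was derived from it and was not checked against another source. Undoing shrinkage of that strength multiplied called log2 fold changes by a median of 1.36. The z test between marks treats the standard errors of the marks as independent. Computation used Python 3.11.15, pandas 2.3.3 and scipy 1.17.1, tested on simulated data. Of 266 list entries, 233 matched a symbol in the tables, 6 the gene name table, and 27 none. The 8 genes and the lists were chosen with earlier results of these data known, and lists overlap those results. Named are the 8 genes, the called genes of each list (the 6 with the smallest adjusted p at most), and overlapping genes. Also named are the 3 genes nearest to each called factor, leaving out clone names and the 8 genes. Neighbours, and list genes named without a call, were chosen after values were seen. The result of 1 list in the plot of gene lists is not reported here. The promoter motif scan was not run.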

Additional observations from a re-analysis of the deposited data

How the results depend on the processing

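The count of 4 factors with more H3K4me3 was also 4 with no filter on low counts and with adjustment over 1 window per gene. It was 4 too at an adjusted p under 0.1, and at the window of highest H3K27me3 or of lowest p. A looser threshold or a lower p could only keep or add calls. The window of highest H3K27me3 was the same one for spi1b, cebpa and irf8, and lay 53 bases away for ikzf1. These alternatives are therefore weak checks of the count. Undoing the shrinkage leaves each Wald statistic as it was, so it could not change this count and is no check of it. The count was 3 at an adjusted p under 0.01, which loses irf8. Without cebpa, whose window overlaps another gene, it was 3, an alternative chosen after seeing the data. The count of 0 for H3K27me3 was also 0 under the 6 alternatives planned for it. The smallest adjusted p of the authors' Wald test over all windows was 0.9999, so other thresholds or windows could not have changed this count. It was 3 at an unadjusted p under 0.05, added after seeing the data. The number of genes at which the changes of the marks differed was 1. It was 3 with the shrinkage undone (ikzf1, cebpa and cbfb) and 2 at the window of highest H3K27me3 (ikzf1 and cbfb). Over all genes, 0.0415% passed in this direction in the first form of the test. That share was not computed with the shrinkage undone, which enlarges each H3K4me3 change, or at the window of highest H3K27me3. With no filter on low counts the endothelial and endocardial markers that fell numbered 2 in place of 4. Erythroid and thrombocyte markers that rose numbered 5 in place of 7, and myeloid effectors 10 in place of 11. Counts of the other lists reported here stayed the same. Among all genes, 185 were called higher in place of 234. That setting adjusts the Wald test over more windows, which raised the adjusted p, at irf8 from 0.0144 to 0.0235. No paired analysis was possible because the tables hold no values per library, and for the same reason no library could be left out in turn. Low counts limit spi1a for H3K4me3 and runx1 for H3K27me3.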
